A study of Mus musculus with 2 samples.

Results

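The 8 neuropeptide genes Npy, Sst, Penk, Tac1, Cck, Vip, Pnoc and Nts were taken by their symbols from the 32285 genes of the deposited tables, and all 8 were listed there. They were chosen by their known names together with their counts in these same libraries, so how many cells carry each is a description, without a test. They were followed in droplet single-cell RNA-seq of mouse cortex at postnatal day 5, in 1 library from Katnal2 mutant animals (Mut) and 1 library from wild-type animals (WT). Katnal2 encodes a subunit of the katanin family, which severs microtubules. Per the labels' protocols, the tissue was digested with trypsin and then collagenase and passed through a sorter before droplets were made, and cold storage after dissection is also mentioned. The sources used here give no allele, strain, sex or sort gate. Although 3 replicates are mentioned in the design, no barcode tells them apart, so each genotype is 1 sample and no comparison between genotypes has a replicate or a p-value.

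A neuropeptide is made as a longer precursor protein, cut and trimmed in dense core vesicles, released from the cell and read by G protein-coupled receptors. In the mature cortex somatostatin (Sst), neuropeptide Y (Npy) and vasoactive intestinal peptide (Vip) mark classes of GABAergic interneurons. Cholecystokinin (Cck) is made by interneurons and by many excitatory neurons, proenkephalin (Penk) and prepronociceptin (Pnoc) give opioid-family peptides, tachykinin 1 (Tac1) gives substance P, and neurotensin (Nts) acts on neurons and on blood vessels.

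The genes lie apart in the genome (GENCODE positions on GRCm38). Npy is at chr6:49822710-49829507 and Tac1 at chr6:7554879-7565834, both on the plus strand, and Vip is at chr10:5639218-5647617, plus strand. Sst (chr16:23889573-23890958), Penk (chr4:4133531-4138819), Cck (chr9:121489824-121495694), Pnoc (chr14:65400673-65425472) and Nts (chr10:102481756-102490486) are on the minus strand. All 8 are protein-coding, with 2 to 7 exons in the longest transcript. Penk is the only one that overlaps another annotated gene, A830012C17Rik on the opposite strand.

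Promoter sequences are shown because Sst and Npy were high in the same few cells, which held almost none of the other members. The cAMP response element (CRE) TGACGTCA and its core TGACG, on either strand, were searched in the 250 bases before the start of 6 members, from RefSeq on GRCm38.p6. The full element was found for Sst, and for 1.62% of 27025 promoters of that length. The core, which the full element also holds, was found for 5 of the 6 members and for 17.9% of all promoters. Capitals mark these letters in the 30 bases around the match nearest the start. For Npy, which had neither, the last 150 bases before the start are given. Each is printed 5′ to 3′ on the gene's strand, and a match is not evidence of binding. The stretches of Sst and Tac1 lie inside the GENCODE gene spans given above, which start before the RefSeq start used here.
Sst, chr16:23890874-23890903, minus: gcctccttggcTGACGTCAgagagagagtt
Vip, chr10:5639126-5639155, plus: gggatcactactgTGACGtctttcggggag
Cck, chr9:121495725-121495754, minus: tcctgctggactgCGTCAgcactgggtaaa
Tac1, chr6:7555005-7555034, plus: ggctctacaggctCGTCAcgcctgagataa
Nts, chr10:102490568-102490597, minus: aattagggaagatCGTCActttccatcaag
Npy, chr6:49822560-49822709, plus: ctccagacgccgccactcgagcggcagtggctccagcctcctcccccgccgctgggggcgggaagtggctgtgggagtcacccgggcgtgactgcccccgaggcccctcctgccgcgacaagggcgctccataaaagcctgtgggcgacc

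A barcode was kept as a cell from 1000 unique molecular identifiers (UMIs) and 500 genes up if no more than 20% of its UMIs were mitochondrial, which gave 10102 cells in Mut and 11024 in WT. Their median depth was 7625.5 UMIs in Mut and 6446 in WT, and 39 barcodes were kept in both libraries. Katnal2 itself had 426 UMIs in Mut and 327 in WT, which checks nothing where the mutated part is unknown. A cell was placed in the class of which it carried the most of 8 markers, with at least 3 and no tie, so classes are called "-like". Of the kept cells, 1294 (12.8%) were neuron-like in Mut and 1854 (16.8%) in WT, including 1153 and 1666 GABAergic, 41 and 35 glutamatergic, 43 and 52 Cajal-Retzius cell-like cells and 57 and 101 neurons of no type. GABAergic cells were typed by the list of 6 markers of which they carried the most, with at least 2 and no tie. Olfactory bulb neuroblast markers led in 1060 of 1153 in Mut and 1522 of 1666 in WT. Those of the medial ganglionic eminence, where Sst interneurons are born, led in 21 and 20. Single markers of the lists differed: Prox1, of the caudal ganglionic eminence list, was in 396 GABAergic cells in Mut and 434 in WT. Lhx6, of the medial list, was in 21 and 16. A single marker does not type a cell under this rule. Astrocyte-like cells (4872 in Mut, 5169 in WT) and oligodendrocyte precursor-like cells (1918 in Mut, 2122 in WT) made up most of the rest.

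Few cells carried a neuropeptide gene. At least 1 UMI of any of the 8 was found in 906 Mut cells (8.97%, exact 95% interval 8.42 to 9.54) and in 831 WT cells (7.54%, 7.05 to 8.05). With every cell thinned to 1000 UMIs the shares were 2.13% in Mut and 1.98% in WT. Npy was carried by the most cells (429 in Mut, 334 in WT), then Tac1 (158 in Mut, 184 in WT), Sst (120 in Mut, 88 in WT), Nts (87 in Mut, 116 in WT), Cck (67 in Mut, 55 in WT), Pnoc (63 in Mut, 61 in WT) and Penk (54 in Mut, 46 in WT). Vip was last, with 2 carrying cells in Mut and 3 in WT. All intervals here and below cover counting error within a library only, and differences between animals are not in them.

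**Figure D1:**
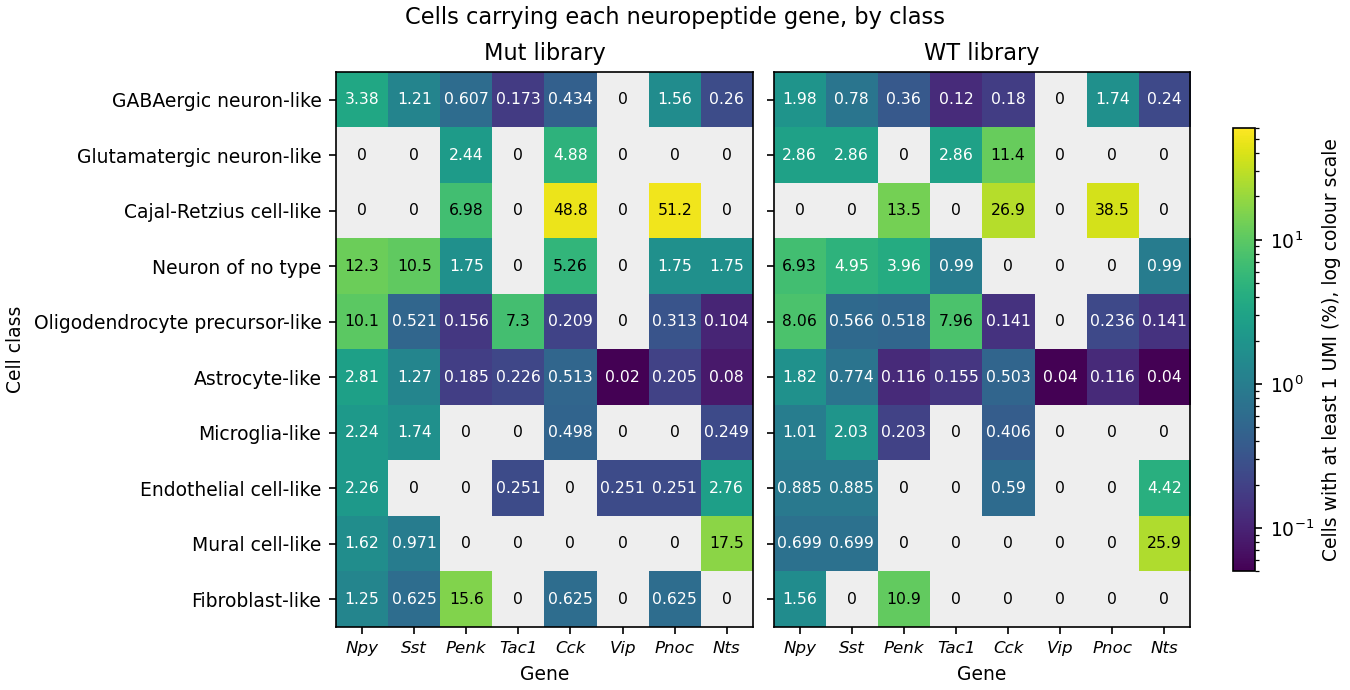
Share of cells (%) with at least 1 UMI of each gene, by cell class (rows) and gene (columns), in Mut (left) and WT (right); grey cells are 0 and the colour scale is logarithmic. Cck and Pnoc stand out in Cajal-Retzius cell-like cells, Nts in mural cell-like cells, Penk in fibroblast-like cells, and Npy and Tac1 in oligodendrocyte precursor-like cells.

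The genes differed in the cells that held them. Neuron-like cells held 95.6% of the Sst UMIs in Mut and 95.8% in WT, and 85.2% and 86.7% of those of Npy. They held 73.0% of Pnoc UMIs in Mut and 88.7% in WT, and 67.4% and 76.5% of Cck UMIs. For Penk the share was 10.1% in Mut and 28.0% in WT, for Nts 2.42% and 2.65%, and for Tac1 1.52% and 2.42%. Microglia-like cells, which should lack these genes, give the background: with a median depth of 6817 UMIs in Mut and 5810 in WT, 2.24% of them in Mut had an Npy UMI and 1.74% an Sst UMI, and in WT 1.01% and 2.03%. Cck was in 0.498% of microglia-like cells in Mut and 0.406% in WT, and Tac1, Vip and Pnoc were in none of 402 in Mut and none of 493 in WT.

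RNA outside cells carried Npy and Sst far above the other members. In barcodes of 10 to 100 UMIs, taken as free RNA, Npy stood at 265 CPM (UMIs per 1000000 UMIs of the cells; 250 to 280) in Mut and 132 (122 to 143) in WT. Sst stood at 168 CPM (156 to 180) in Mut and 78.1 (70.3 to 86.4) in WT. Both were above their level over all kept cells, which was 43.2 CPM in Mut and 36.6 in WT for Npy and 28.8 and 22.3 for Sst. No such barcode held more than 5 UMIs of either gene. Free Cck was at 15.3 CPM in Mut and 7.38 in WT, and no Vip UMI was seen.

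Sst and Npy were packed into a handful of cells. A count of at least 20 Sst UMIs was reached by 7 Mut cells (0.0693% of the kept cells, 0.0279 to 0.143) and 8 WT cells (0.0726%, 0.0313 to 0.143). Sst ran from 109 to 1078 UMIs in the Mut cells, with a median of 284, and from 33 to 541 in the WT cells, with a median of 218.5. Every one of these cells also had at least 20 Npy UMIs, 163 to 1033 in Mut with a median of 319 and 44 to 715 in WT with a median of 303. Together the 2 genes made up 6.51% to 16.9% of all UMIs of a Mut cell and 3.59% to 14.0% of a WT cell, so the ranges overlapped and the number of such cells was nearly the same.

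**Figure D2:**
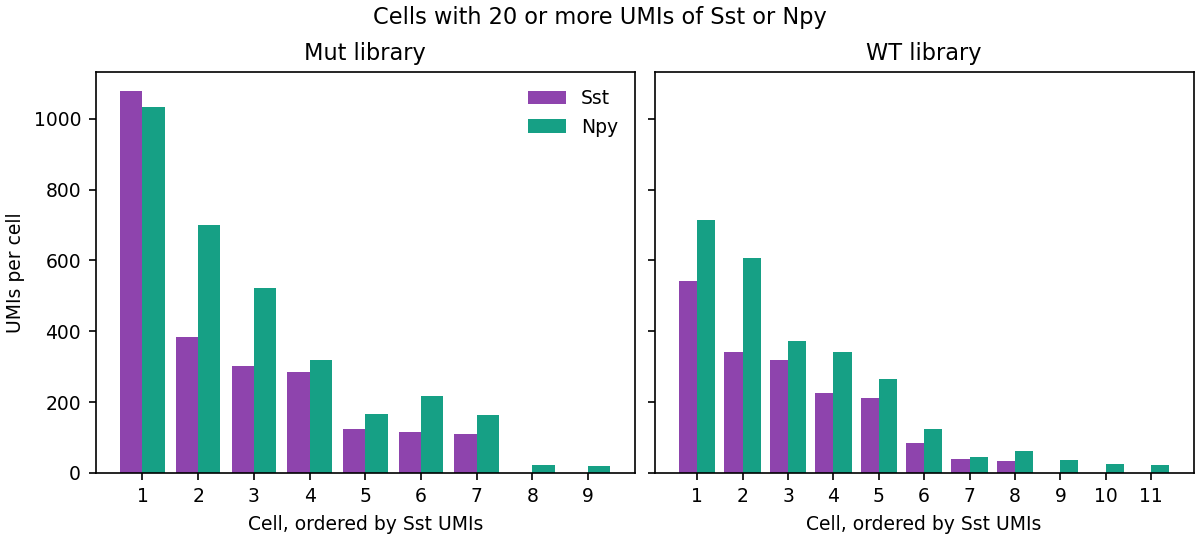
UMIs of Sst and Npy (vertical axis) in each cell with 20 or more UMIs of either gene, ordered by Sst, in Mut (left) and WT (right). In 7 Mut and 8 WT cells both genes are high, and in the 2 and 3 cells at the right end Npy stands without Sst.

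These few cells held 94.1% of all Sst UMIs in Mut and 95% in WT, and 81.6% and 81.8% of all Npy UMIs. A single Mut cell gave 42.3% of the library's Sst UMIs and 27.0% of its Npy UMIs, and the leading WT cell gave 28.6% and 23.1%. The ratio of Npy to Sst was 1.3 over the Mut cells (1.23 to 1.37) and 1.41 over the WT cells (1.33 to 1.5). In free RNA it was 1.57 in Mut (1.44 to 1.72) and 1.69 in WT (1.49 to 1.93).

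All of these cells were neuron-like. The marker rule placed 3 as GABAergic and 4 as neurons of no type in Mut, and 3 and 5 in WT. At least 1 of Gad1, Gad2 and Slc32a1, which make or load GABA, was detected in 6 of 7 Mut cells and 8 of 8 WT cells. Nos1, neuronal nitric oxide synthase, was detected in 5 of 7 and 6 of 8 cells and Chodl in 3 of 7 and 8 of 8, genes that were picked after their values were seen. In the mature cortex Sst, Npy, Nos1 and Chodl together mark long-range projecting interneurons. Of the GABAergic cells without 20 Sst UMIs, Nos1 was found in 3 of 1150 in Mut and 1 of 1663 in WT, and Chodl in 40 and 46. No Tac1, Vip or Nts UMI was found in the 7 Mut and 8 WT cells, and Penk, Cck and Pnoc together gave 5 UMIs in Mut and 4 in WT. Doublet scoring marked 6 of the 7 Mut cells and 0 of the 8 WT cells, and clusters computed without the members put all 15 in a cluster named glutamatergic by its marker score, so the neuron type they were given depends on the rule.

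Another small set of GABAergic cells had Npy alone. In 2 Mut cells Npy had 20 and 23 UMIs and in 3 WT cells 21, 24 and 35, each with 0 Sst UMIs. Lhx6, a transcription factor of interneurons from the medial ganglionic eminence, was carried by 21 GABAergic cells in Mut and 16 in WT, and Npy was found in 12 of these (57.1%, interval 34 to 78.2%) and 8 (interval 24.7 to 75.3%). These include Sst-rich cells, 3 in Mut and 2 in WT. Among the GABAergic cells without Lhx6 it was found in 27 of 1132 in Mut (2.39%) and 25 of 1650 in WT (1.52%). Npy in these cells without Lhx6 stood at 5.07 CPM in Mut (3.49 to 7.12) and 13.1 in WT (10.7 to 15.8), against 2.99 (1.37 to 5.67) and 1.58 (0.513 to 3.69) in microglia-like cells. Of the 106 WT UMIs, 44 lay in 1 Sst-rich cell and 24 in 1 of the cells with Npy alone. In Mut no GABAergic cell with 20 or more Npy UMIs lacked Lhx6, so the 2 levels are not of like cells.

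Of the Sst-carrying GABAergic cells, 5 of 14 also carried Npy in Mut (35.7%, 12.8 to 64.9) and 4 of 13 in WT (30.8%, 9.09 to 61.4). Among GABAergic cells without Sst the share with Npy was 2.99% in Mut and 1.75% in WT. Where single UMIs were set aside and at least 5 UMIs of each gene were asked for over all neuron-like cells, 8 of 10 Sst cells had Npy in Mut and 8 of 9 in WT. Outside the rich cells, 11 of 1150 GABAergic cells in Mut and 10 of 1663 in WT had Sst at all, at 0.957% and 0.601%. Over these 1150 and 1663 cells Sst stood at 4.84 CPM in Mut and 1.71 in WT, against 2.66 and 4.42 in the deeper microglia-like cells.

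Summed over GABAergic cells, Sst stood at 270 CPM in Mut (258 to 283) and 98.0 in WT (91.3 to 105), and Npy at 356 CPM in Mut (342 to 371) and 141 in WT (133 to 149). Pnoc stood at 3.31 CPM in Mut (2.08 to 5.01) and 5.23 in WT (3.79 to 7.05). Over both libraries these 3 members reached 30 UMIs, the fewest for which a fold was read, and all 3 lay past 1.5-fold, 2 higher and 1 lower in Mut, where 6.89% of 11698 genes did. The ratio of Mut to WT was 2.53 for Npy (2.36 to 2.71) and 2.76 for Sst (2.54 to 3.0). Without the 3 GABAergic cells of each library with 20 or more Sst UMIs it was 1.04 for Npy (0.801 to 1.34), and 2.83 for Sst (1.47 to 5.75) from 32 UMIs in Mut and 14 in WT. With doublets removed it was 1.25 for Npy and 1.72 for Sst, with classes from clusters 1.01 and 3.04, and without each library's leading cell 3.73 and 3.37. In female cells it was 1.13 for Npy and 11.2 for Sst, the second from 14 UMIs, and in male cells 2.13 and 2.56. With no minimum of UMIs asked for, the ratio under 13 other settings was past 1.5-fold higher in Mut in 13 for Sst and in 9 for Npy. The female cells, with 14 Sst UMIs, are among the 13 though below the minimum of 30. Classes from clusters left the rich cells out of the GABAergic class, and the Sst ratio there came from 35 UMIs (1.41 to 7.10). Over all neuron-like cells, where the rich cells of no type are counted too, Npy was at 432 CPM in Mut and 285 in WT and Sst at 323 and 193, both again past 1.5-fold, as were 6.25% of 12266 genes. The female cells of the GABAergic class gave 0 members past 1.5-fold, of 1 that had enough UMIs.

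Npy was also carried by oligodendrocyte precursor-like cells, the dividing glia that give rise to myelinating cells. It was found in 193 of them in Mut (10.1%, 8.75 to 11.5) and 171 in WT (8.06%, 6.94 to 9.30), at 21.1 CPM in Mut (18.7 to 23.7) and 18.7 in WT (16.4 to 21.1). Thinned, the shares were 1.67% in Mut (1.14 to 2.35) and 1.65% in WT (1.15 to 2.29). In microglia-like cells they were 0.746% (0.154 to 2.17) and 0.406% (0.0492 to 1.46), so the intervals of the thinned shares overlapped in both libraries. No precursor-like cell had more than 6 Npy UMIs in Mut or 10 in WT, and Sst was nearly absent, with 11 UMIs in Mut and 12 in WT. Npy thus exceeded Sst 25.3 times in Mut (13.9 to 51.2) and 21.2 times in WT (11.9 to 41.5). In free RNA the ratio was 1.57 (1.44 to 1.72) and 1.69 (1.49 to 1.93), and the part of free RNA here was not tested. In microglia-like cells the ratio was 1.12 in Mut (0.385 to 3.35) and 0.357 in WT (0.101 to 1.05). The level did not differ between the genotypes beyond counting error, with a ratio of 1.13 (0.95 to 1.35).

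Most Tac1 carriers were in the same class. Of its carriers, 140 of 158 in Mut and 169 of 184 in WT were precursor-like cells, 7.30% (6.18 to 8.56) and 7.96% (6.85 to 9.20) of the class, at 12.6 CPM in Mut (10.8 to 14.7) and 13.8 in WT (11.9 to 15.9). Most had a single UMI and the highest cell had 3 in Mut and 4 in WT. The ratio of Mut to WT was 0.912 (0.736 to 1.13), and none of the 2 members with enough UMIs in this class lay past 1.5-fold, where 5.45% of 13445 genes did. Tac1 carriers in this class had a mean of 0.264 of the 8 GABAergic neuron markers in Mut and 0.325 in WT, against 0.291 and 0.269 in the cells without Tac1. For Npy, carriers had 0.358 in Mut and 0.351 in WT, against 0.282 and 0.267.

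Within the class, the Tac1 level in CPM was lower in cells with at least 3 of 6 division markers. It stood at 5.80 CPM in dividing Mut cells (3.72 to 8.63) and 15.7 in the other Mut cells (13.2 to 18.5), and at 8.87 (6.30 to 12.1) and 16.2 (13.7 to 19.0) in WT, so the intervals did not overlap in either library. Dividing cells were deeper, at medians of 8892 against 5775 UMIs in Mut and 8347 against 5357 in WT. Thinned shares were 0.955% of dividing (0.261 to 2.43) and 1.40% of other cells (0.869 to 2.13) in Mut. In WT they were 0.406% (0.0492 to 1.46) and 1.53% (0.996 to 2.26), so the intervals of the thinned shares overlapped in both libraries. Npy stood at 16.4 CPM in dividing and 23.2 in other Mut cells, and at 15.5 and 20.2 in WT. Pdgfra, the receptor that marks precursors, is 1 of the 8 markers that set the class, so cells without it were placed by the other markers. Tac1 was in 138 of 1814 Pdgfra-carrying (7.61%, 6.43 to 8.92) and 2 of 104 other cells (1.92%, 0.234 to 6.77) in Mut. In WT it was in 166 of 1981 (8.38%, 7.20 to 9.69) and 3 of 141 (2.13%, 0.441 to 6.09). The intervals overlapped in Mut and not in WT, and those of the thinned shares overlapped in both libraries. Npy was in 22 of 140 Tac1 cells in Mut (15.7%) and 14 of 169 in WT (8.28%), against 9.62% and 8.04% of the cells without Tac1.

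Astrocyte-like cells held low Npy. It was found in 137 cells in Mut (2.81%) and 94 in WT (1.82%), at 4.78 CPM (4.18 to 5.44) and 2.78 CPM (2.31 to 3.32), with thinned shares of 0.513% and 0.426%. Microglia-like cells stood at 2.99 CPM in Mut (1.37 to 5.67) and 1.58 in WT (0.513 to 3.69), so the intervals overlapped. The ratio of Npy to Sst in astrocyte-like cells was 3.23 in Mut (2.46 to 4.27) and 2.80 in WT (1.97 to 4.04). In free RNA it was 1.57 (1.44 to 1.72) and 1.69 (1.49 to 1.93). In astrocyte-like cells 4 members had enough UMIs, and Npy (ratio 1.72, 1.37 to 2.15) and Tac1 (2.21, 1.02 to 5.18) lay past 1.5-fold higher in Mut, where 5.21% of 14769 genes lay past it. Tac1 had 24 UMIs in Mut, 9 of them in 1 cell, and 10 in WT, at most 3 in a cell. Free Npy was 2.0 times as high in Mut as in WT, and its part in the difference was not tested. A few astrocyte-like cells had 5 or more Npy UMIs, 8 in Mut with up to 15 and 2 in WT with up to 6. They held 67 of the 229 Npy UMIs of the class in Mut and 12 of the 123 in WT, and none had an Sst UMI.

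**Figure D3:**
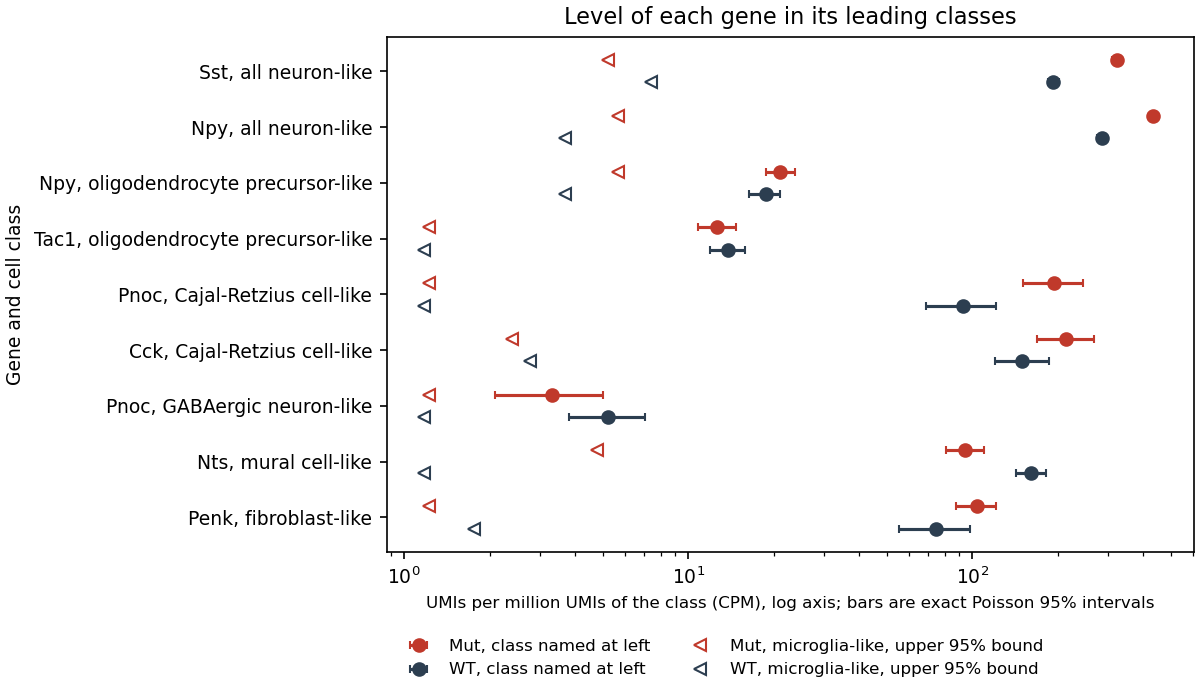
Level of each gene (CPM, log axis) in the classes where it was found, with exact Poisson 95% intervals, Mut above WT in each row; open triangles give the upper bound of the same gene in microglia-like cells. All levels drawn lie above these bounds in both libraries, from 3.31 CPM for GABAergic Pnoc in Mut upward.

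Cajal-Retzius cell-like cells, the early-born neurons of the cortical surface that secrete reelin, carried Cck and Pnoc most often of all classes. Cck was in 21 of 43 Mut cells (48.8%, 33.3 to 64.5) and 14 of 52 WT cells (26.9%, 15.6 to 41.0). Pnoc was in 22 of 43 (51.2%, 35.5 to 66.7) and 20 of 52 (38.5%, 25.3 to 53.0). Penk was in 3 Mut and 7 WT cells, and none of the class had Npy, Sst, Tac1, Vip or Nts. A count of 0 cells for each of these 5 genes allows a share of cells with a UMI of up to 6.98% in Mut and 5.77% in WT.

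Pnoc was at 194 CPM in Mut (151 to 246) and 92.4 in WT (68.8 to 121), a ratio of 2.10 (1.44 to 3.08). Cck was at 214 CPM in Mut (169 to 268) and 150 in WT (120 to 186), a ratio of 1.42 (1.03 to 1.97). Thus 1 of the 2 members with enough UMIs lay past 1.5-fold here, and 16.1% of 4996 genes did, in a class of few cells. The highest cell held 11 Pnoc UMIs in Mut and 7 in WT, 15.9% and 13.7% of the class total, and the ratio without the leading cells was 2.11. Pnoc was higher in Mut in female cells, at 184 and 88.8 CPM, and in male cells, at 157 and 86.0 CPM. Cck was lower in Mut among female cells, at 172 and 326 CPM, and higher among male cells, at 389 and 112 CPM. The WT cells were the deeper ones among those with Cck, at a median of 10929 UMIs in Mut and 12888.5 in WT.

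Cck and Pnoc shared cells. Of the Cck cells, 14 of 21 in Mut (66.7%, 43.0 to 85.4) and 9 of 14 in WT (64.3%, 35.1 to 87.2) had Pnoc, against 8 of 22 (36.4%) and 11 of 38 (28.9%) of the cells without Cck. Of the Penk cells of the class, 3 of 3 in Mut and 6 of 7 in WT had Pnoc. Cells with either gene were deeper than those without, by medians of 10929 and 4544.5 UMIs in Mut and 12888.5 and 10205 in WT for Cck, and depth was not matched in these shares.

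Outside Cajal-Retzius cell-like cells both genes were in smaller shares of cells. Astrocyte-like cells held 25 of the 67 Cck carriers in Mut and 26 of the 55 in WT. Cck stood there at 0.689 CPM in Mut and 0.770 in WT, against 0.664 and 0.948 in microglia-like cells. Cck was in 2 of 41 glutamatergic cells in Mut with 2 UMIs each, and in 4 of 35 in WT, where 1 cell held 32 of the 53 UMIs (60.4%). In GABAergic cells Cck was in 5 of 1153 in Mut and 3 of 1666 in WT. Pnoc was in none of the glutamatergic cells, which allows a share with a UMI of up to 7.32% in Mut and 8.57% in WT. It was in 18 of 1153 GABAergic cells in Mut (1.56%, 0.928 to 2.46) and 29 of 1666 in WT (1.74%, 1.17 to 2.49). Of these, 17 and 26 were cells with olfactory bulb neuroblast markers. In the cells that were not dividing Pnoc was at 5.24 CPM in Mut and 7.89 in WT, and in dividing ones at 0.994 and 1.92 CPM. The GABAergic ratio of Mut to WT, 0.633, had a 95% interval of 0.361 to 1.08, and it was 1.87 (0.663 to 6.0) in female cells.

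Most Nts UMIs, 56.7% in Mut and 68.2% in WT, lay in mural cell-like cells. Mural cells are the pericytes and smooth muscle cells on vessel walls. Endothelial cell-like cells held 18.3% and 8.75% of the Nts UMIs, and unassigned cells 13.8% and 18.0%. Nts was found in 54 of 309 mural cell-like cells in Mut (17.5%, 13.4 to 22.2) and 74 of 286 in WT (25.9%, 20.9 to 31.4). The level was 94.6 CPM in Mut (80.7 to 110) and 161 in WT (142 to 182). Nts was the single member with enough UMIs in the class, and it lay past 1.5-fold, lower in Mut with a ratio of 0.587 (0.480 to 0.717), where 10.1% of 8885 genes lay past it. The class had nearly the same depth in both libraries, at a median of 4407 UMIs in Mut and 4314.5 in WT. Thinned, the shares were 4.85% in Mut and 12.2% in WT.

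The lower level in Mut was spread over many cells. Counts of 5 or more UMIs were reached by 12 Mut and 19 WT cells, counts of 2 to 4 by 16 and 27, and 1 UMI by 26 and 28. The highest cell held 16 UMIs in Mut and 27 in WT, or 9.76% and 10.5% of the class total. Female cells gave 92.7 CPM in Mut and 183 in WT, and male cells 64.4 and 177. Under each of 13 other settings Nts was lower in Mut and past 1.5-fold, with ratios of 0.364 to 0.622. With 1 library a genotype, a difference between the genotypes and one between these 2 preparations cannot be told apart.

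**Figure D4:**
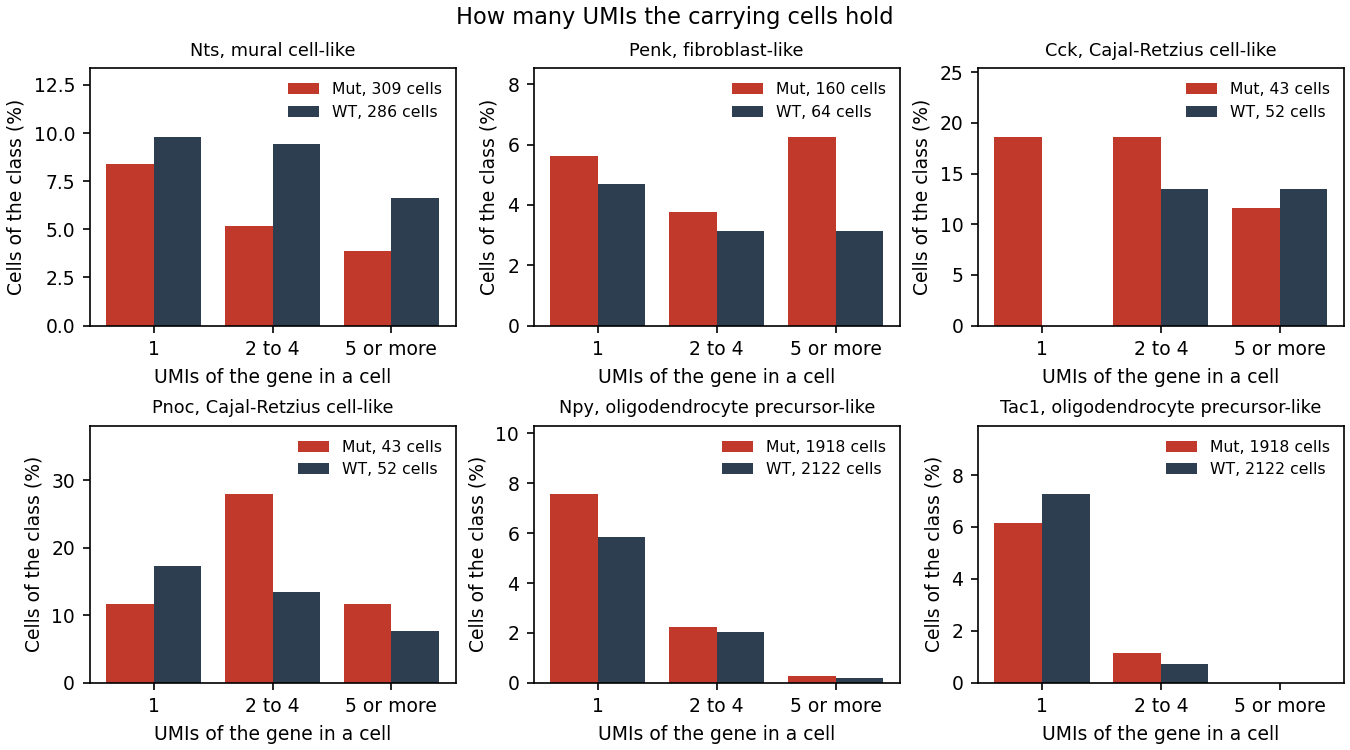
Share of cells of a class (%) that hold 1, 2 to 4, or 5 and more UMIs of a gene, with Mut bars left of WT bars. For Nts in mural cell-like cells the WT bar is the taller one at each count, and for Pnoc in Cajal-Retzius cell-like cells the Mut bar is taller from 2 UMIs up.

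Single markers, of the 8 that set the mural class, split it unevenly. Cells with Kcnj8, a potassium channel of pericytes, had Nts in 53 of 270 in Mut (19.6%) and 69 of 248 in WT (27.8%), against 1 of 39 (2.56%) and 5 of 38 (13.2%) of those without, which were shallower at medians of 1489 and 1637.5 UMIs. Thinned, the shares in WT were 12.9% with Kcnj8 and 7.89% without, with overlapping intervals. Cells with Abcc9, another pericyte gene, stood at 97.4 CPM in Mut and 163 in WT, against 44.0 and 142 in cells without it, with overlapping intervals in both libraries. Cells with the smooth muscle actin gene Acta2 had Nts in 3 of 24 in Mut (12.5%) and 8 of 27 in WT (29.6%), against 17.9% and 25.5% of those without, so the order differed between the libraries. Nts carriers had a mean of 1.35 of 8 endothelial markers in Mut and 1.39 in WT, against 1.38 and 1.28 in the other cells.

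Endothelial cell-like cells had Nts in 11 of 399 in Mut (2.76%) and 15 of 339 in WT (4.42%). Of these, 7 in Mut and 11 in WT were among the 65 and 67 cells that also carried 2 or more mural markers, in which Nts stood at 17.6 CPM in Mut and 17.1 in WT. In the other endothelial cell-like cells 4 carriers in Mut held 27 UMIs (5.94 CPM, 3.91 to 8.64) and 4 in WT held 5 (1.23 CPM, 0.4 to 2.88). Over the class Nts stood at 8.80 CPM in Mut (6.59 to 11.5) and 5.80 in WT (3.99 to 8.14), a ratio of 1.52 (0.964 to 2.42). It was the member past 1.5-fold there, of 1 with enough UMIs, where 7.10% of 10973 genes were.

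Fibroblast-like cells held 151 of the 199 Penk UMIs in Mut and 49 of the 100 in WT. Penk was found in 25 of 160 cells in Mut (15.6%, 10.4 to 22.2) and 7 of 64 in WT (10.9%, 4.51 to 21.2). The level was 104 CPM in Mut (87.7 to 121) and 74.3 in WT (55.0 to 98.3), a ratio of 1.39 (1.0 to 1.97). So 0 of the 1 member with enough UMIs lay past 1.5-fold, where 17.6% of 7832 genes did. A single WT cell held 30 of the 49 WT UMIs (61.2%), and without the leading cell of each library the ratio was 2.85 (1.75 to 4.89). With doublets removed it was 16.5 (5.53 to 80.9), and the female and male cells went opposite ways, at 4.37 and 0.162. The male WT cells were 9, with 31 Penk UMIs in 2 carriers.

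Within the class, the Penk level was highest in cells without Slc6a13, a GABA and taurine transporter of the meninges. The gene was picked after its values were seen, like Kcnj8, Abcc9, Acta2, Lhx6 and Pdgfra above. Of the cells lacking it, 19 of 34 in Mut (55.9%, 37.9 to 72.8) and 3 of 9 in WT (33.3%, 7.49 to 70.1) carried Penk, at 370 CPM in Mut (312 to 435) and 284 in WT (206 to 381). Of the Slc6a13-carrying cells, 6 of 126 in Mut (4.76%) and 4 of 55 in WT (7.27%) did, at 5.63 and 9.92 CPM. The cells without Slc6a13 gave 145 of 151 Penk UMIs of the class in Mut and 44 of 49 in WT. The 3 WT carriers among them held 30, 10 and 4 Penk UMIs. All 3 were scored as doublets, so the WT side of this split rests on scored doublets.

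Over all kept cells, Penk stood at 2.25 CPM in Mut (1.95 to 2.59) and 1.18 in WT (0.962 to 1.44), a ratio of 1.9 (1.49 to 2.45). The fibroblast-like class made up 1.58% of the kept cells in Mut and 0.581% in WT, and the part of this in the difference was not tested.

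The few GABAergic cells in which striatal markers led, 8 in Mut and 12 in WT, held 2 and 3 Nts UMIs and 1 and 3 Penk UMIs, too few for a level.

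Vip was all but undetected. It had 2 UMIs in Mut and 3 in WT, each in a cell of its own, and these lay in astrocyte-like, endothelial cell-like and unassigned cells. None of 1294 neuron-like cells in Mut had a Vip UMI and none of 1854 in WT, which allows a share of cells with a UMI, not of cells that express the gene, of up to 0.232% in Mut and 0.162% in WT. The markers of the caudal ganglionic eminence, where Vip interneurons are born, led in 3 GABAergic cells in Mut and 5 in WT.

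**Figure D5:**
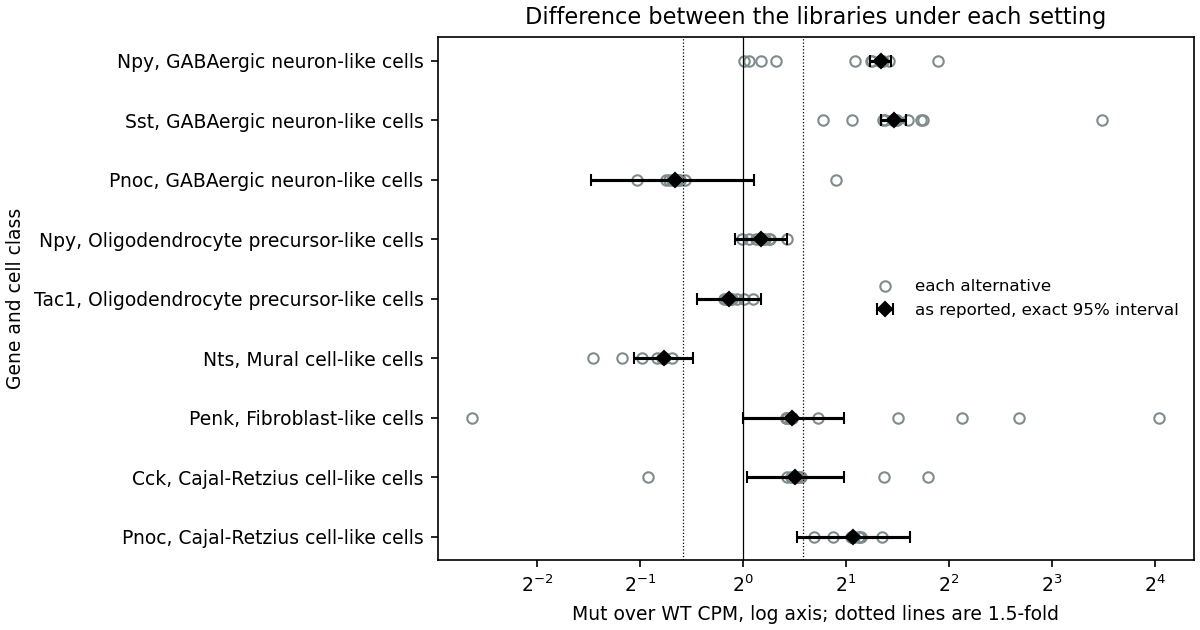
Ratio of Mut to WT CPM (log axis) of 9 gene and class pairs as reported (diamonds with exact 95% intervals) and under each other setting (circles); dotted lines are 1.5-fold. Nts in mural cell-like cells stays left of its 1.5-fold line and Pnoc in Cajal-Retzius cell-like cells right of its own under all settings shown. Penk, Cck and GABAergic Npy, Sst and Pnoc spread widely.

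Genes that process, receive and degrade peptides were read in the same classes. Of 13 processing and dense core vesicle genes, 13 had enough UMIs in oligodendrocyte precursor-like cells and 11 in GABAergic cells. In the precursors none lay past 1.5-fold, and Pcsk1n, an inhibitor of the convertase that cuts precursors, was the most abundant, at 557 CPM in Mut and 562 in WT. In GABAergic cells Pcsk1, Cpe and Scg2 lay past 1.5-fold higher in Mut and 0 genes lower, 3 of 11 where 6.89% of all genes in the class were past it. Pcsk1 and Scg2 had intervals of the ratio of 0.807 to 3.33 and 0.943 to 3.46. Scg5, a chaperone of the convertase encoded by Pcsk2, was the most abundant there at 197 CPM in Mut and 211 in WT. Cpe, the carboxypeptidase that trims peptides, was at 239 CPM in Mut and 153 in WT. Cpe was higher in Mut in all 8 classes in which it was summed, by 1.26 to 2.58 times. In astrocyte-like cells it stood at 2189 CPM in Mut and 1732 in WT, and in microglia-like cells, which hardly carried a member, at 196 and 85. In microglia-like cells 3 of 5 processing genes lay past 1.5-fold, all higher in Mut, where 11.4% of 9803 genes did. Besides Cpe these were Scg3, at 24.6 and 12.9 CPM, and Scg5, at 15.3 and 8.84 CPM, with the part of free RNA not tested. Scg5 was also past it in mural cell-like cells, at 15.6 and 6.89 CPM, and in endothelial cell-like cells, at 4.15 and 2.46 CPM. Scg2 was past it in astrocyte-like cells, at 0.751 and 0.362 CPM, and Cpe in fibroblast-like cells, at 180 and 69.8 CPM.

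In Cajal-Retzius cell-like cells 9 processing genes had enough UMIs and 2 lay past 1.5-fold, where 16.1% of all genes did. Cpe was past 1.5-fold higher in Mut, at 605 and 286 CPM, and the convertase gene Pcsk1 lower, at 70.4 and 107 CPM, with an interval of the ratio of 0.395 to 1.07. Pcsk1n was again the most abundant, at 1577 CPM in Mut and 1526 in WT.

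Receptors were sparse. Of 20 receptor genes for the members' peptides, 3 had enough UMIs in GABAergic cells, 5 in precursor-like cells and 2 in mural cell-like and in fibroblast-like cells. Sstr1, a somatostatin receptor, was the most abundant in the precursors at 35.1 CPM in Mut and 32.1 in WT, in a class that nearly lacked Sst. Npy1r, a receptor of neuropeptide Y, led in fibroblast-like cells at 89.9 CPM in Mut and 83.4 in WT, and in mural cell-like cells at 25.4 and 26.3. The sorting receptor gene Sort1 led in astrocyte-like cells, at 41.9 CPM in Mut and 38.2 in WT, and in GABAergic, endothelial cell-like and microglia-like cells. In Cajal-Retzius cell-like cells Oprl1 led with 12 UMIs in Mut and 11 in WT. Oprl1, the receptor of the Pnoc peptide, lay past 1.5-fold lower in Mut in GABAergic cells, at 1.51 and 2.92 CPM, with an interval of the ratio of 0.220 to 1.12.

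Of 12 other neuropeptide genes, 6 had enough UMIs in astrocyte-like cells. Nmb, neuromedin B, was the most abundant there, at 18.9 CPM in Mut and 18.0 in WT. Trh, the precursor of thyrotropin-releasing hormone, lay past 1.5-fold lower in Mut, at 1.19 and 2.04 CPM, and the dynorphin precursor gene Pdyn higher, at 0.918 and 0.611 CPM, with an interval of the ratio of 0.91 to 2.52. In GABAergic cells Nmb lay past 1.5-fold higher in Mut, at 4.82 and 2.80 CPM. It was the most abundant of the list in the other classes too, apart from Grp in fibroblast-like cells and Pthlh in Cajal-Retzius cell-like cells, which had 18 and 6 UMIs in Mut and 3 and 5 in WT. Of 8 peptide-degrading enzymes, 5 had enough UMIs in mural cell-like cells, where Anpep was the most abundant at 96.9 CPM in Mut and 73.3 in WT and Thop1 was past 1.5-fold higher in Mut, at 26.0 and 15.7 CPM. In Cajal-Retzius cell-like cells Mme, neprilysin, was the most abundant, at 67.6 CPM in Mut and 92.4 in WT, and Thop1 was past 1.5-fold higher in Mut, at 47.9 and 23.5 CPM. Ece1 was the most abundant enzyme gene in endothelial cell-like cells, at 199 CPM in Mut and 171 in WT, and in fibroblast-like cells, at 79.6 and 88.0 CPM, where Ide was past 1.5-fold higher in Mut, at 34.3 and 18.2 CPM. Nln led in GABAergic cells, at 31.2 CPM in Mut and 31.0 in WT, and Ide in astrocyte-like, precursor-like and microglia-like cells, at 94.7, 63.1 and 34.2 CPM in Mut and 82.5, 58.3 and 25 in WT. The intervals of the ratio included 1 for Scg5 in endothelial cell-like cells (0.844 to 3.51), Nmb in GABAergic cells (0.976 to 3.08), Thop1 in mural cell-like (0.995 to 2.82) and Cajal-Retzius cell-like cells (0.93 to 4.55) and Ide in fibroblast-like cells (0.989 to 3.89).

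Among 12013 genes, those whose level over 13 classes in the 2 libraries was most like a member's were ranked by Pearson's r of log2(CPM + 5) over 26 points, given without a p because the points share libraries and cells. Chodl came first for both Npy (r = 0.97) and Sst (0.96), followed for Npy by Helt (0.94) and Six3 (0.91) and for Sst by Rgs8 and Helt (0.9 each). Six3 had 0 UMIs in the 7 Mut and 8 WT cells rich in Sst, which held most Npy UMIs. A likeness over class sums is thus not one within cells. The collagen gene Col6a1 led for Penk (0.9), before Wnt4 (0.89) and Slc38a4 (0.88). For Tac1 they were Sgcz (0.96), Pcdh15 and Slc22a3 (0.94 each), and for Cck Fn3k (0.95), Gpr22 and Rell2 (0.94 each). For Pnoc they were Lhx1os, Trp73 and Gm27199 (0.97 each), and for Nts Gm50130, Cpa1 and Gm13861 (0.95 each). Trp73 is among the markers that set the classes and Six3 among those of the striatal type, and no gene passed 0.65 for Vip.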

How the data were processed

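Both libraries were read as raw UMI counts per gene and barcode, as the authors deposited them, with every barcode included. Per the file headers Cell Ranger 4 wrote them. STAR and the build GRCm38 are named in the submitters' processing notes, and no annotation release is. The libraries hold 97891513 UMIs in Mut and 93664707 in WT.

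UMIs were summed per library and class and given as CPM with exact Poisson 95% intervals. Shares have exact Clopper-Pearson intervals and ratios exact conditional binomial ones. A gene was called past 1.5-fold in a class with at least 30 UMIs over both libraries, without a test. A limit from a count of 0 is 3 cells. Cells that met no class but had at least 3 of 8 general neuron markers were called neurons of no type, a rule set after the cells were seen, as were the limit of 20 UMIs and the splits by single genes. Cells that had just 3 markers or led by 1 numbered 117 of 1153 GABAergic cells in Mut and 193 of 1666 in WT. Doublets were kept, and removed as an alternative with Scrublet in scanpy 1.11.5 at 0.8% per 1000 barcodes (816 in Mut, 972 in WT). Sexes were read per cell from Xist and Y-linked UMIs. This gave 5248 female and 2757 male cells in Mut and 3822 and 4258 in WT, and the other cells had neither or both. The balance of the sexes thus differed between the libraries, and ratios over all cells of a class were not adjusted for it. Called folds and thinning were checked on simulated counts.

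The text names all 8 members, the other pathway genes past 1.5-fold or most abundant of their list in a class, and the 3 genes most like each member. The members and lists were chosen with earlier results of these data known.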

Additional observations from a re-analysis of the deposited data

Results flagged for a closer look

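The difference in Penk between the libraries ran in opposite directions in cells of the 2 sexes. Among fibroblast-like cells the ratio of Mut to WT CPM was 4.37 (2.63 to 7.65) in female cells and 0.162 (0.0934 to 0.279) in male cells. Only 9 male WT cells were in the class, against 63 male Mut cells, and the difference between the sexes was not tested. The 9 male WT cells held 31 Penk UMIs, in 2 carriers. The highest WT cell of the class held 30 and was scored as a doublet. The difference in Cck in Cajal-Retzius cell-like cells also ran in opposite directions. Its ratio was 0.527 (0.305 to 0.904) in female cells and 3.48 (2.19 to 5.52) in male cells, also not tested. These ratios came from 20 and 10 female and 12 and 30 male cells in Mut and WT.

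In barcodes of 10 to 100 UMIs, which enter the class values only where free RNA was subtracted as an alternative, 3 members stood out as higher in Mut. The ratio was 2.0 for Npy (1.82 to 2.21), 2.15 for Sst (1.90 to 2.44) and 2.07 for Cck (1.36 to 3.20), from 1230 and 627, 781 and 370, and 71 and 35 UMIs in Mut and WT. Penk and Tac1 were lower in Mut in these barcodes, at 4.52 and 7.38 CPM and 3.66 and 5.27 CPM, with overlapping intervals.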

How the results depend on the processing

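No paired analysis was possible because each genotype has 1 library and the columns carry no replicate number. The count of members past 1.5-fold in GABAergic cells was 3; it was 0 in female cells and 6 of 7 without a minimum of UMIs, and 2 or 3 under the other 13 settings. The share of cells with any member, 8.97% in Mut and 7.54% in WT, was 2.13% and 1.98% thinned to 1000 UMIs, 2.47% and 2.03% where 2 UMIs were asked for, and 8.20% in male WT cells. Classes do not enter this share, so both class rules were not run for it. The share of Sst cells with Npy was 80.0% in Mut and 75.0% in WT where 2 UMIs were asked for, from 5 and 4 cells, and 100% in female WT cells, from 1 cell. Pnoc in GABAergic cells was reversed in female cells, at a ratio of 1.87. Of the other ratios of single members 93 lay within the interval of the value as reported and 23 did not, and of the shares of single members 101 did and 43 did not. The causes were not tested. Leaving out the cells rich in Sst, the leading cells or the 39 shared barcodes, the count over all neuron-like cells, and the alternatives applied to single ratios were chosen after seeing the data. A library is 1 sample, so leaving out replicates was not possible, and Vip, with 2 UMIs in Mut and 3 in WT, allows no comparison.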
